A study of Mus musculus with 8 samples.

Results

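The regions described here were accessible in squamous cell carcinoma (SCC) cells with wild-type focal adhesion kinase (FAK), were missing from the strongest peaks of cells without FAK, and were among the strongest peaks again when a mutant FAK was put back. Such regions will be called restored regions, although 345 of them had a weaker peak in both FAK-/- libraries. They numbered 592 of 40309 accessible regions in all (1.47%), and of 1388 regions (3.44%) that separated FAK-WT-expressing from FAK-/- cells. The FAK-nls mutant alone restored 227, the FAK-kd mutant alone restored 201, and both mutants restored 164, which left 796 that neither mutant restored. The comparison addresses whether a FAK protein that is poorly nuclear, or that lacks kinase activity, comes with the same accessible chromatin as the wild-type protein.

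FAK, encoded by *Ptk2*, is a tyrosine kinase of focal adhesions that relays signals from integrins and growth factor receptors, and it also acts as a scaffold for Src, Cas proteins and other partners. Part of the protein enters the nucleus, where it binds transcription factors and their regulators. A mutant that restores a region therefore separates scaffolding, kinase activity and nuclear entry only as far as the cell lines differ in FAK alone. An enhancer or promoter is read by ATAC-seq as a stretch of DNA that a transposase can enter, usually because nucleosomes have made way for bound factors such as AP-1, the dimers of FOS and JUN proteins that open many enhancers of Ras-driven cells.

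All 4 lines descended from SCC cells of FVB mice carrying K14CreER and FAKflox/flox, in which tumours driven by Ha-Ras had been raised with DMBA and TPA. FAK was deleted in culture with 4-hydroxytamoxifen, so every line, the FAK-/- control included, lacked the endogenous kinase. Retroviral constructs then supplied FAK-WT, FAK-nls (R177A, R178A, R190A, R191A, R216A and R218A) or FAK-kd (K454R). Each line had 2 libraries, described as biological replicates. The constructs went into a FAK-/- clone, and the cells expressing them were selected with hygromycin. Each line with a construct is 1 transduced population. A difference due to FAK and one that arose while a line was made, selected or grown therefore cannot be told apart. Of 8 keratinocyte markers, only *Itga6* had a called promoter in all 8 libraries, 5 had one in none, and *Krt14* and *Col17a1* had one in a single FAK-/- library each. The 4 fibroblast markers *Col1a1*, *Col1a2*, *Pdgfra* and *Pdgfrb* had a called promoter in all 8 libraries, so the promoter calls did not show the keratinocyte pattern that the label of cutaneous SCC cells would lead to.

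The deposited lists held between 24402 and 53728 peaks per library. The 24383 peaks with the highest −log10 p were used from each, which is the whole usable list of FAK-nls 1 but 45.4% of that of FAK-WT 1, and peaks sharing at least 1 bp were merged into regions (mm10 coordinates). A region is "called" in a library when one of these strongest peaks overlaps it. The restored regions were chosen by their calls in the 8 libraries, so their call patterns and peak levels are given as descriptions without any test. Read counts per region were not used here, and a region without a call may still be accessible below the cutoff. Intervals are 95% Wilson intervals that cover the counting of regions only.

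The strongest restored regions are shown as examples of the DNA involved, and 6 of them are printed here from the GRCm38.p6 genome of RefSeq. They are the region with the best worst rank in each class and the first of each class in a protein-coding promoter. Each is the 200 bases around the centre of the stretch shared by the peaks of the libraries that had to call it, on the plus strand, 5′ to 3′. Capitals mark AP-1 (TGACTCA or TGAGTCA), RUNX (TGTGGTT, here on the other strand) and the CArG box, the site read by serum response factor, and the *Chm* sequence holds none of these. That box was added to the search after the *Dusp5* sequence had been seen.
Nearest *Depdc1a*, FAK-nls alone, chr3:159181604-159181803: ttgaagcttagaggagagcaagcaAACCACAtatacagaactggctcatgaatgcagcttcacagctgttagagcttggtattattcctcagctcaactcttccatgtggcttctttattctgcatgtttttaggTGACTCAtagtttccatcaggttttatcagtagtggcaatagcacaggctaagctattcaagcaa
*Recql5* promoter, FAK-nls alone, chr11:115933501-115933700: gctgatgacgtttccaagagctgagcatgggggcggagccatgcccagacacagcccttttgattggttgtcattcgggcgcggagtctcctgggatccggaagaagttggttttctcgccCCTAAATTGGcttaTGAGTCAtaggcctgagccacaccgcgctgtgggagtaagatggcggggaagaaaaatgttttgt
*Pappa* intron, FAK-kd alone, chr4:65254134-65254333: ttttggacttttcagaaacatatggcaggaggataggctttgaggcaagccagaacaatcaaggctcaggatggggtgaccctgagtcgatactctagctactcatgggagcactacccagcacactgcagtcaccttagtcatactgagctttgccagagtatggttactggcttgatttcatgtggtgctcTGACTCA
*Chm* promoter, FAK-kd alone, chrX:113185415-113185614: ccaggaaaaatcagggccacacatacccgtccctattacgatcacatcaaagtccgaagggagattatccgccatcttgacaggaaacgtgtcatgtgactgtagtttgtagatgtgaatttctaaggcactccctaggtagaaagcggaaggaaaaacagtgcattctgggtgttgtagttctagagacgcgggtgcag
*Il1rapl1* intron, both mutants, chrX:87529199-87529398: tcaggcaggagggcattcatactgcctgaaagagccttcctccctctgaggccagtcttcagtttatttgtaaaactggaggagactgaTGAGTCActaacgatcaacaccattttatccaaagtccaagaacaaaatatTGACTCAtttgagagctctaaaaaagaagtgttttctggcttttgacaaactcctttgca
*Dusp5* promoter, both mutants, chr19:53528958-53529157: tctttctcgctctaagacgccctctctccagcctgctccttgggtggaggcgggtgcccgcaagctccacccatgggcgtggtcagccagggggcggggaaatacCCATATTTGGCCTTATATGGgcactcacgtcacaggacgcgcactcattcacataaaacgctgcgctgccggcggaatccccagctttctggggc

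Mutant calls in the FAK-WT-only regions ran from none to all 4 libraries. Of the 1388 FAK-WT-only regions, 334 had no call in any of the 4 mutant libraries and 164 had a call in all 4. Of the 227 regions restored by FAK-nls alone, 76 had no FAK-kd call and 151 had a call in 1 FAK-kd library. Of the 201 restored by FAK-kd alone, 91 had no FAK-nls call and 110 had a call in 1 FAK-nls library. Most regions of the single-mutant classes were therefore called in 1 library of the other mutant as well. Whether such a call marks partial accessibility or disagreement of replicates near the cutoff was not tested.

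**Figure D1:**
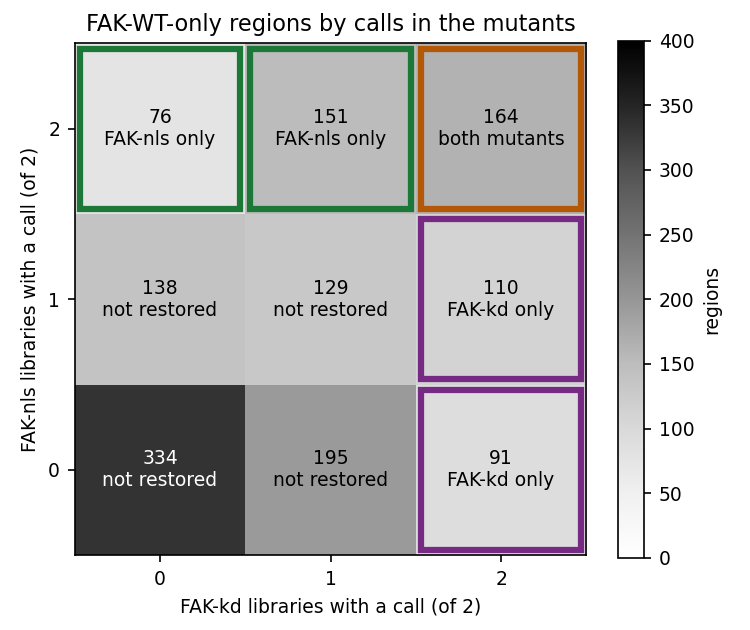
Number of FAK-WT-only regions by the number of FAK-kd libraries (x axis) and FAK-nls libraries (y axis) that call them, with the restored classes outlined. The largest cell is the 334 regions without any mutant call, and 164 regions have all 4 mutant calls.

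The share restored was low beside the share of FAK-WT regions that the mutants have in general. Both FAK-nls libraries called 28.2% of the FAK-WT-only regions (25.9 to 30.6%) and both FAK-kd libraries 26.3% (24.0 to 28.7%). With all peaks of every list these shares were 4.78% and 15.7%, which turns their order. Of the 20021 regions called in both FAK-WT libraries, 77.3% were called in both FAK-nls and 81.6% in both FAK-kd libraries. The share went with the FAK-/- calls. With 1 FAK-/- call, FAK-nls had 51.2% and FAK-kd 53.3% of the FAK-WT regions, and with both FAK-/- calls they had 85.2% and 90.4%. The sets also differed in strength. In FAK-WT 1 the median rank was 17424.5 for restored regions and 18690 for those not restored, beside 7345.5 for regions called in all 8 libraries. How far this choice of weaker regions set the low shares was not tested.

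The mirror set gave nearly the same shares. There were 1333 regions called in both FAK-/- and neither FAK-WT library, and 540 of them (40.5%) were also called in both libraries of a mutant, beside 592 of 1388 (42.7%, 40.1 to 45.3%) for the FAK-WT-only regions. FAK-nls had 27.5% of the mirror regions, FAK-kd 25%, and both mutants together 12%, beside 28.2%, 26.3% and 11.8% of the FAK-WT-only regions. By this measure, a mutant line shared calls with FAK-WT-expressing cells against FAK-/- cells about as often as with FAK-/- cells against FAK-WT-expressing cells. Single libraries were less even: FAK-kd 2 called 46.9% of the FAK-WT-only and 39.1% of the mirror regions, whereas FAK-kd 1 called 39.9% and 46.7%. The FAK-nls libraries called 41.4% and 42.1% of the FAK-WT-only regions, and 40.3% and 42.1% of the mirror regions.

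Few restored regions were devoid of a peak in FAK-/- cells. In the full lists, 82 of the 592 (13.9%, 11.3 to 16.9%) had no peak in either FAK-/- library, 165 had one in 1 library, and 345 (58.3%) had one in both, below the cutoff used here. The both-mutants class had the fewest without any FAK-/- peak, 8 of 164 (4.88%), beside 38 of 227 (16.7%) for FAK-nls alone and 36 of 201 (17.9%) for FAK-kd alone. Among the 796 regions that no mutant restored, 216 (27.1%, 24.2 to 30.3%) had none. In the mirror set such regions were rarer, with 28 of 540 (5.19%, 3.61 to 7.39%) lacking a peak in both full FAK-WT lists where a mutant shared the call, and 72 of 793 (9.08%) where none did. The full FAK-WT lists held 53703 and 39036 usable peaks and the FAK-/- lists 43136 and 35236, so these shares are not on equal terms.

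**Figure D2:**
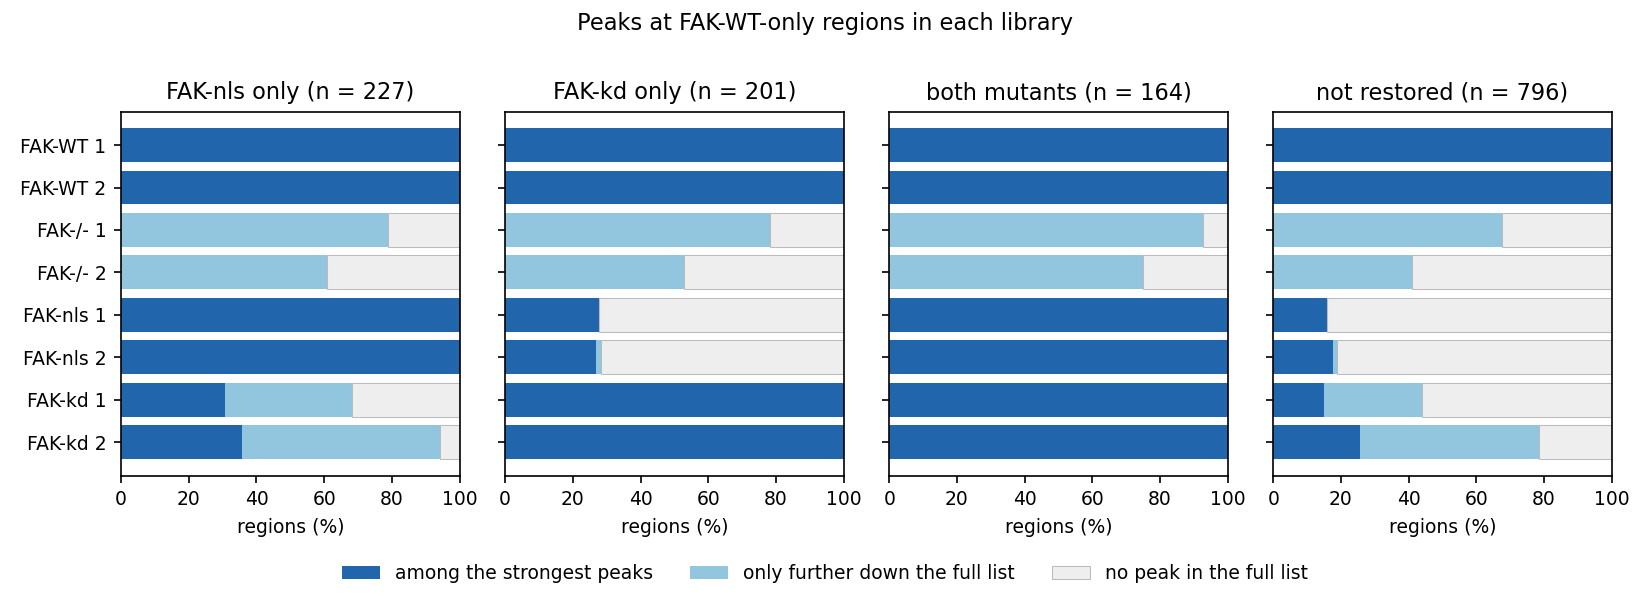
For each library (y axis), the percentage of regions (x axis) with a call among the strongest peaks, with a peak only further down the full list, or with no peak. In the both-mutants class FAK-/- 1 has a weaker peak in 152 of 164 regions, and the short FAK-nls lists leave hardly any room below the cutoff.

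The cutoffs differed between libraries. The cutoff in −log10 p was 8.10 and 5.62 in the FAK-WT libraries, 6.13 and 5.17 in FAK-/-, 3.36 and 3.77 in FAK-nls, and 4.95 and 6.63 in FAK-kd. Equal peak number therefore meant a weaker statistical call in FAK-nls than in FAK-/- cells. In 216 restored regions (36.5%) a FAK-/- peak had a larger −log10 p than the weakest of the required mutant calls, namely 107 of the FAK-nls, 24 of the FAK-kd and 85 of the both-mutants class. Read by fold enrichment, the ratio of coverage in the peak to its local background, this held for 126 regions (21.3%). A FAK-/- peak exceeded the weakest FAK-WT call in 11 regions by −log10 p and in 22 by fold enrichment. At the edge of the rule, FAK-WT calls went down to rank 24382 in both libraries, and FAK-/- peaks began at rank 24400 in FAK-/- 1 and at rank 24389 in FAK-/- 2, just outside it.

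Median fold enrichment over the class restored by FAK-nls alone was 5.43 and 4.5 in FAK-WT, 4.01 and 4.24 in FAK-nls, and 3.68 and 3.44 in the FAK-/- libraries that had a peak. For the class restored by FAK-kd alone it was 5.48 and 4.51 in FAK-WT, 4.14 and 5.23 in FAK-kd, and 3.73 and 3.49 in FAK-/-. For the both-mutants class it was 5.32 and 4.55 in FAK-WT, 4.21 and 4.34 in FAK-nls, 4.22 and 5.14 in FAK-kd, and 3.65 and 3.47 in FAK-/-. The choice of calls bears on these medians, and so does the scale of each library. In the regions called in all 8 libraries the median was 5.95 and 5.13 in FAK-WT, 5.33 and 4.98 in FAK-/-, 4.73 and 4.94 in FAK-nls, and 5.02 and 5.90 in FAK-kd, so no order of the lines is read from the medians. Restored regions were of middling strength in FAK-WT 1, with median ranks of 16991, 17441 and 17630.5 in the FAK-nls, FAK-kd and both-mutants classes, beside 18690.0 for the regions not restored and 7345.5 for regions called in all 8 libraries.

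The strongest regions restored by FAK-kd alone had no FAK-/- peak. The first was an intronic region of *Pappa* (chr4:65253857-65254685, 130097 bp downstream of the start), the gene of a secreted protease that cleaves IGF-binding proteins. Its fold enrichment was 7.52 and 7.85 in FAK-WT and 6.87 and 7.30 in FAK-kd, and there was no peak at all in the FAK-/- or FAK-nls lists. Its pileup, which is not scaled between libraries, was 31.8 and 25.6 in FAK-WT and 16.2 and 18.3 in FAK-kd. Next came intergenic regions nearest *Cbln2*, which encodes a synaptic organiser, *Vmn2r12*, a vomeronasal receptor gene, and *Tenm2*, a teneurin gene, followed by a region upstream of *Peli2*, a ubiquitin ligase gene of Toll-like and IL-1 receptor signalling. The *Peli2* region (chr14:47937239-47937732) had fold enrichments of 6.87 and 5.29 in FAK-WT and 6.06 and 7.0 in FAK-kd. It too lacked a peak in both FAK-/- and both FAK-nls libraries, whereas those near *Cbln2*, *Vmn2r12* and *Tenm2* each had a peak in 1 FAK-nls library.

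The strongest regions restored by FAK-nls alone each had a weaker FAK-/- peak. The first lay 314076 bp upstream of *Depdc1a* (chr3:159180734-159181980), in an intron of the noncoding gene *Gm20752*. Its fold enrichment was 8.05 and 6.10 in FAK-WT and 5.72 and 6.52 in FAK-nls, with 4.15 in FAK-/- 1 and no peak in FAK-/- 2. FAK-kd 2 called it at 7.09 while FAK-kd 1 had no peak, so the FAK-kd libraries disagree on this region. A region nearest *Rps6ka1* (chr4:133864605-133865236), which encodes the ERK-activated kinase RSK1, had 7.44 and 4.82 in FAK-WT, 4.80 and 4.79 in FAK-nls, 3.13 and 3.06 in FAK-/-, no peak in FAK-kd 1 and a call at 4.80 in FAK-kd 2. The region nearest *Alg10b* (chr15:90377970-90378431), a glycosylation enzyme gene, stood at 9.56 and 8.40 in FAK-WT but at 4.65 and 4.88 in FAK-nls, 4.32 and 3.48 in FAK-/-, and 4.30 and 4.56 in FAK-kd, of which only FAK-kd 1 was a call. For this region the call returned while the level stayed nearer to FAK-/- than to FAK-WT. The promoters of *Recql5*, a DNA helicase gene, and *Rptor*, which encodes the raptor subunit of mTORC1, led the coding promoters of this class. *Rptor* (chr11:119856118-119857158) had 5.37 and 5.08 in FAK-WT, 4.02 and 5.28 in FAK-nls, 3.44 and 3.40 in FAK-/-, and 3.46 and 5.26 in FAK-kd, of which only FAK-kd 2 was a call. *Recql5* had 6.62 and 5.23 in FAK-WT, 4.22 and 4.40 in FAK-nls, and 3.56 and 3.56 in FAK-/-, with a FAK-kd 1 call at 5.97 above both FAK-nls libraries and 4.44 in FAK-kd 2.

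In the both-mutants class the strongest region lay in an intron of *Il1rapl1* (chrX:87528974-87529617), a gene of the IL-1 receptor family known from synapses. Its fold enrichment was 8.97 and 6.73 in FAK-WT, 5.84 and 6.51 in FAK-nls, 6.83 and 8.85 in FAK-kd, and 4.24 and 3.65 in FAK-/-. The 6 FAK-expressing libraries were all above both FAK-/- libraries there, as the rule favours. Others were regions nearest *Mettl4*, *Epha3*, an ephrin receptor gene, and *Pirt*. The promoter of *Dusp5*, which encodes a nuclear phosphatase that inactivates ERK, completed the strongest 5 (chr19:53528728-53529593). *Dusp5* had fold enrichments of 4.41 and 4.58 in FAK-WT, 4.45 and 4.42 in FAK-nls, and 4.19 and 4.49 in FAK-kd, with 3.34 in FAK-/- 1 and no peak in FAK-/- 2. In pileup the same 6 libraries ran from 12 in FAK-nls 1 to 28.9 in FAK-WT 1.

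**Figure D3:**
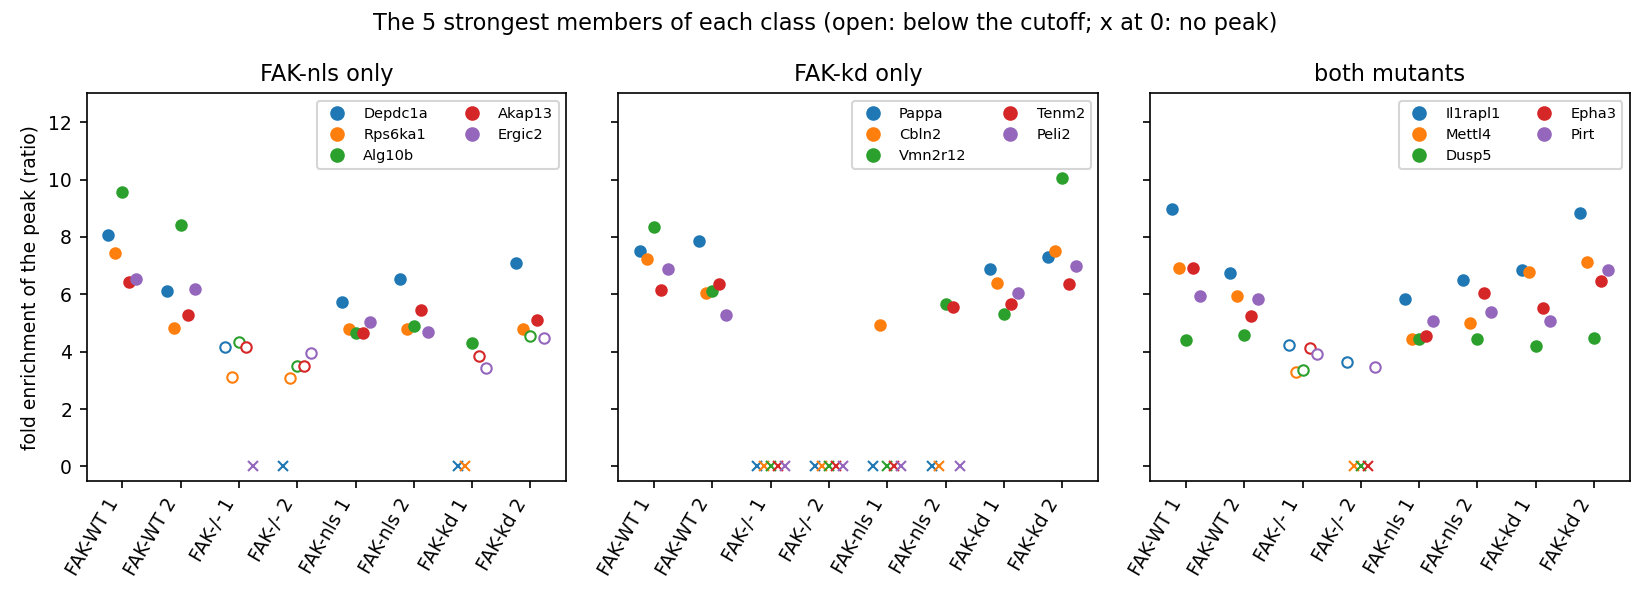
Fold enrichment (y axis, ratio) of the 5 strongest restored regions of each class in every library (x axis), named by the nearest protein-coding gene, with filled points for calls, open points for peaks below the cutoff, and crosses at 0 for no peak. The 5 regions restored by FAK-kd alone have no FAK-/- peak, whereas each of the 5 restored by FAK-nls alone has one in at least 1 FAK-/- library. Over the whole classes, 17.9% (FAK-kd alone) and 16.7% (FAK-nls alone) have no FAK-/- peak.

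Restored regions differed from the regions not restored in where they lay. A region was placed in a promoter when its centre was between 500 bp upstream and 2000 bp downstream of an annotated transcription start site (TSS, GENCODE vM21). Of the restored regions 167 of 592 (28.2%, 24.7 to 32.0%) were promoters, beside 102 of 796 (12.8%, 10.7 to 15.3%) of those not restored, a difference of 15.4 percentage points (11.1 to 19.7). The both-mutants class held 72 promoters of 164 (43.9%, 36.5 to 51.6%), whereas FAK-nls alone had 22.9% (17.9 to 28.8%) and FAK-kd alone 21.4% (16.3 to 27.6%). For all regions the share was 31.7% and for regions called in all 8 libraries 50.9%. Of the 167 promoter regions, 138 had a TSS of a protein-coding gene as the nearest.

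The promoter share went with the FAK-/- peaks below the cutoff. It was 11% (5.88 to 19.6%) of the 82 restored regions without any FAK-/- peak, 17.0% of the 165 with one in 1 library and 37.7% of the 345 with one in both. Among regions not restored it went from 8.33% through 11.1% to 18% in the same order. The mirror regions showed the same split, with 38.8% promoters where both mutants had the call, 27.1% and 23.7% for FAK-nls alone and FAK-kd alone, and 17.0% where neither did. The part of peak strength or width in these shares was not tested. Median region length was 862.5 bp in the both-mutants class, 714 and 650.0 bp in the FAK-nls and FAK-kd classes, and 549 bp in the regions not restored.

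**Figure D4:**
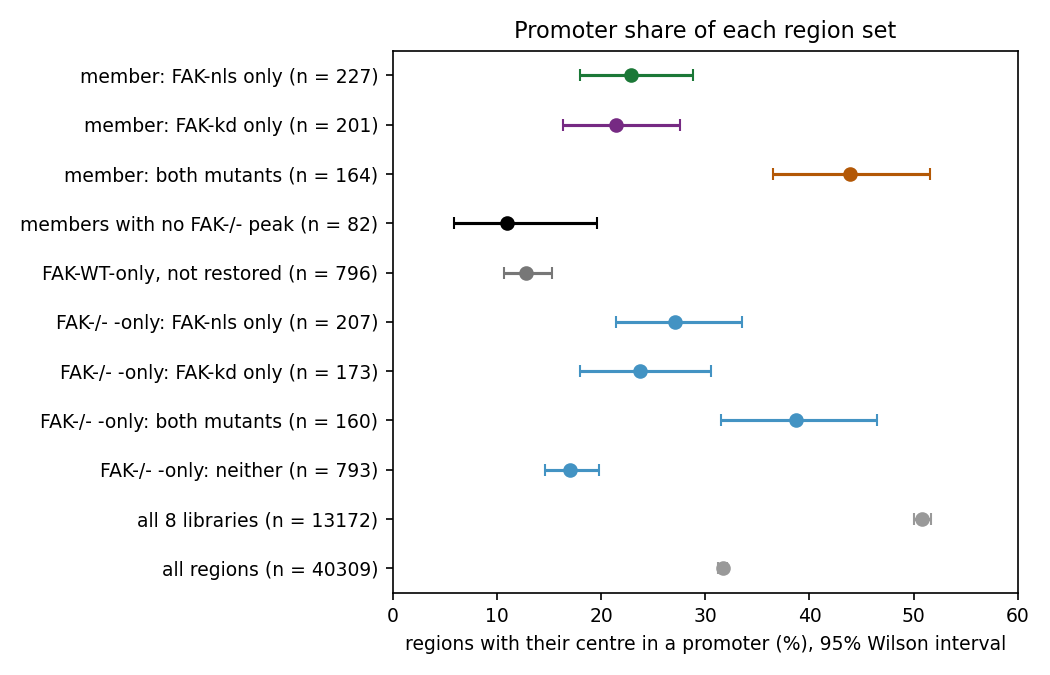
Percentage of regions whose centre lay in a promoter (x axis, with 95% Wilson intervals) for each set (y axis). The both-mutants class stands at 43.9% and the restored regions without any FAK-/- peak at 11%, and the FAK-/- -only regions show a like spread from 17.0 to 38.8%.

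Many restored regions lay far from any TSS. The median distance to a TSS was 9.86 kb for FAK-nls alone, 12.5 kb for FAK-kd alone and 4.71 kb for both mutants, beside 13.2 kb for regions not restored and 5.98 kb for all regions. More than 50 kb from any TSS were 13.2%, 22.9% and 19.5% of the 3 classes, beside 17.7% of regions not restored and 8.13% of all regions. The 82 regions without a FAK-/- peak were the most remote, at a median of 22.4 kb, and the most AT-rich, with a median GC content of 41.9% beside 47% for all restored regions and 48.8% for all regions. The share of regions mostly made of repeats was low in the restored regions (2.70%) and over all regions (2.48%). In the 82 regions without a FAK-/- peak it was 6.10% (2.63 to 13.5%).

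AP-1 sites were the most frequent of the motifs sought. In the central 500 bp, TGACTCA or TGAGTCA on either strand was present in 52.4% of the regions restored by FAK-nls alone (45.9 to 58.8%), 46.3% restored by FAK-kd alone (39.5 to 53.2%) and 32.9% restored by both (26.2 to 40.4%). It was present in 53.1% of the regions not restored and in 38.9% of all regions. The shuffled letters ACTCAGT or ACTGAGT were present in 9.69%, 11.9% and 7.32% of the same classes. Outside promoters AP-1 was present in 62.9% of FAK-nls, 51.9% of FAK-kd and 48.9% of both-mutants regions, beside 56.6% of those not restored, 59.1% of those called in all 8 libraries and 50.3% of all regions. All restored regions outside promoters had 55.8%.

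The single-mutant classes differed little in sequence. Of 15 motifs and 2 shuffled controls, none had a difference between FAK-nls alone and FAK-kd alone whose 95% interval (Newcombe) left out 0 over all regions. Outside promoters 2 did. AP-1 was 11 percentage points more frequent in the FAK-nls class (0.339 to 21.3), and SOX (ACAATGG or ACAAAGG) 11.9 points (2.67 to 20.8), with 30.3% against 18.4% and a background of 19.4%. The intervals are not adjusted for the number of motifs and are no test. Between all restored regions and those not restored, 4 intervals left out 0 over all regions: AP-1 (-8.21 points), CTCF (-2.32), AP-2 (7.46) and CRE (1.44). None of these did outside promoters, where RUNX alone did. There the restored regions together had RUNX (TGTGGTT) in 23.5% against 17.7% of those not restored, a difference of 5.81 points (0.966 to 10.8), with 17.0% in all regions. Over all regions the RUNX difference was 2.55 points (-1.50 to 6.70). For the both-mutants class against those not restored, 7 intervals left out 0 over all regions and 1 outside promoters (FOX, -6.04 points). The p53 motif was present in 1.22% of the both-mutants class, 4.56% of all restored regions, 5.40% of those not restored and 4.00% of all regions. ETS (AGGAAGT or CGGAAGT) was present in 18.2% of restored regions, 20.2% of those not restored and 18.1% of all.

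**Figure D5:**
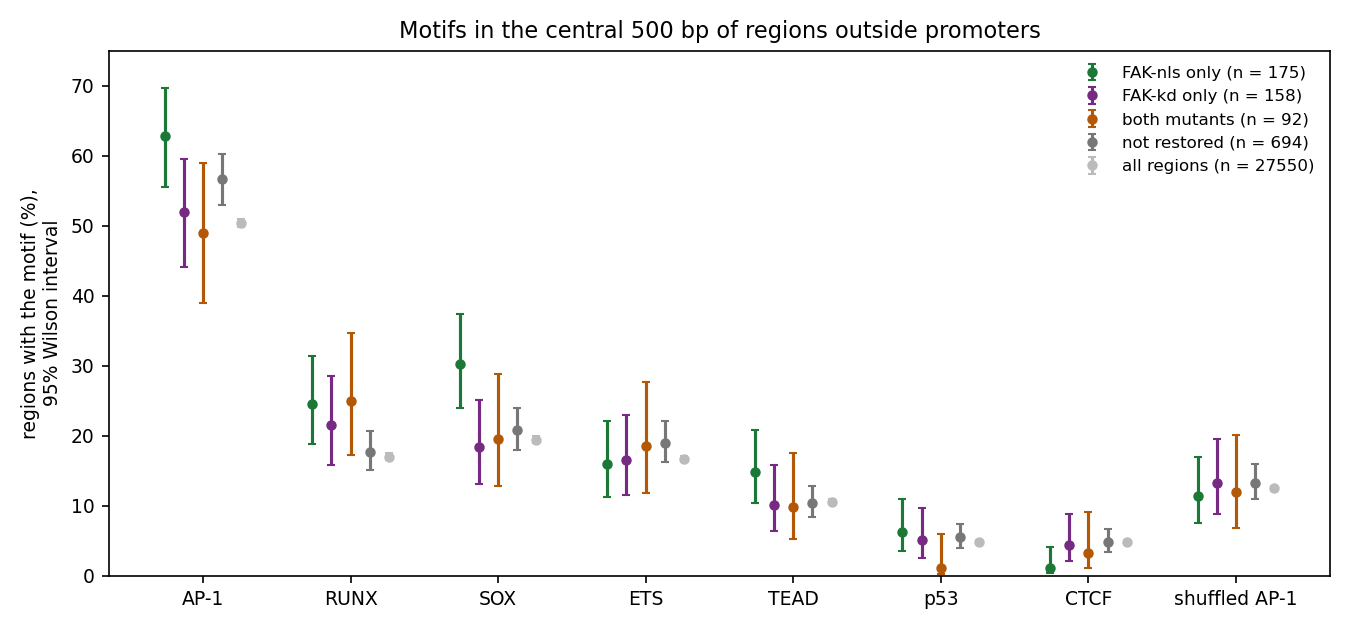
Percentage of regions outside promoters with each motif in the central 500 bp (y axis, with 95% Wilson intervals) for 5 sets of regions (colours) and 8 motifs (x axis). AP-1 is present in 62.9% of regions restored by FAK-nls alone and SOX in 30.3%, while most other intervals overlap the value of all regions.

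The 3 strongest regions at a distance from promoters, near *Depdc1a*, *Pappa* and *Il1rapl1*, each held AP-1 letters in the 200 bases shown. Those near *Depdc1a* lay outside the central 500 bp of its merged region, which therefore counted as without AP-1 in the shares above. The *Recql5* promoter held AP-1 letters and a CArG box, and the *Dusp5* promoter had a pair of adjoining CArG boxes and no AP-1 letters. The 200 bases of the *Chm* promoter held neither. CArG boxes were present in 3 of the 72 promoter regions of the both-mutants class (4.17%, 1.43 to 11.5%), in 5 of all 167 restored promoter regions (2.99%), those of *Dusp5* and *Recql5* included, and in 1.71% of the promoter regions overall. Over all restored regions the share was 1.86%, beside 2.38% of all regions, and outside promoters it was 1.41%, beside 2.69%, so CArG boxes were not more frequent in restored regions as a whole.

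Genes of the MAPK pathway, the cascade below Ras, had restored regions at a share near that over all regions. Regions were assigned to the nearest protein-coding TSS, and 549 of 13755 genes with any region (3.99%) had at least 1 restored region. A gene with more regions is more likely to hold a restored region, so gene shares are not on equal terms between lists. Of 26 genes of EGF receptor signalling and MAPK feedback with a region, 4 had one (15.4%), and the 5 restored regions made up 1.85% of the 270 regions of the list, beside 1.47% of all regions. These were *Dusp5*, *Dusp6* with 2 regions, *Dusp4*, which like *Dusp5* and *Dusp6* encodes a MAPK phosphatase, and *Lrig1*, which encodes a receptor that restrains EGF receptors. The *Dusp6* regions, both restored by FAK-nls alone, lay 15480 bp upstream (chr10:99247214-99248288) and 205893 bp downstream (chr10:99471245-99471824) of the start. The first had fold enrichments of 4.93 and 3.89 in FAK-WT, 4.15 and 4.03 in FAK-nls, 3.09 and 3.49 in FAK-/-, and 3.24 and 4.36 in FAK-kd. At that region the FAK-nls libraries lay above the FAK-/- libraries, while FAK-kd 1 lay within the FAK-/- range. The *Lrig1* intron region (chr6:94635234-94636107) had 5.10 and 3.83 in FAK-WT, 5.06 and 4.48 in FAK-nls, and 3.08 and 3.57 in FAK-/-. FAK-kd was split there, with 3.44 below the cutoff in FAK-kd 1 and a call at 5.33 in FAK-kd 2. That was the largest value without regard to the scale of each library.

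In the TGF-beta pathway, 6 of 167 regions were restored (3.59%, beside 1.47% of all regions). They were assigned to 6 of its 22 genes (27.3%, beside 3.99% of all genes). These gene shares are not on equal terms, since the 22 genes had 167 regions and the 13755 genes with any region had 40309. The region share of the markers of other cell types was close to that of the TGF-beta list, at 3 of 90 regions (3.33%). Both rest on few regions. Among the ligands, *Bmp2* and *Tgfb2* had 1 each, restored by FAK-nls alone and by both mutants, and *Bmp7* had 1, restored by FAK-kd alone. Among the receptors, *Tgfbr3* had an intronic region restored by FAK-nls alone and *Tgfbr2* a region 43600 bp upstream of its start, restored by both mutants. The signal transducer *Smad3* had 1 restored by FAK-kd alone. The *Tgfbr2* region (chr9:116218599-116219322) lay in the promoter of the noncoding gene *Gm31410*. Its fold enrichment was 6.28 and 4.87 in FAK-WT, 4.90 and 3.67 in FAK-nls, 4.25 and 4.79 in FAK-kd, and 3.59 and 3.69 in FAK-/-. In unscaled fold enrichment, FAK-nls 2 was therefore within the FAK-/- range in this region although it counted as a call. The scale of each library can change this too. The *Bmp2* region (chr2:133972541-133973061), 420642 bp from its start, had 7.84 and 5.41 in FAK-WT but 3.51 and 4.47 in FAK-nls, and 3.57 in FAK-/- 1. FAK-/- 1 was thus above FAK-nls 1 in unscaled fold enrichment, an order that the scale of each library can change. The *Smad3* region (chr9:63793125-63794071) had 4.92 and 4.02 in FAK-WT, 4.82 and 5.30 in FAK-kd, and 3.53 and 3.07 in FAK-/-.

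In the IGF list, *Pappa* had a second restored region, 45700 bp upstream of its start (chr4:65078152-65078797) and restored by FAK-nls alone, and *Irs2*, an insulin receptor substrate gene, had 1. The upstream *Pappa* region had fold enrichments of 6.55 and 8.03 in FAK-WT, 4.59 and 4.19 in FAK-nls, 5.14 and 4.32 in FAK-kd, and 3.17 in FAK-/- 1. FAK-kd thus had peaks at both *Pappa* regions, although at the upstream region the FAK-kd 2 peak was below the cutoff and only FAK-kd 1 was a call. FAK-nls was called at the upstream region and had no peak at the intronic one. Its lists hold hardly any peaks below the cutoff, so peaks there cannot be compared between the mutants. Of the IGF list 2 of 12 genes (16.7%) and 3 of 109 regions (2.75%) were involved, beside 3.99% of all genes and 1.47% of all regions. Its genes too had more regions each than genes in general, so the gene shares are not on equal terms, and 3 regions are few.

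The lists closest to FAK itself had few restored regions, but the counts are too small to read a lower share from them. Of 38 genes of FAK and adhesion with a region, 1 had one (2.63%), an intronic region of *Lpp*, which encodes a zyxin-like adhesion protein, and it made up 0.386% of the 259 regions of the list. No restored region was assigned to *Ptk2*, of 14 regions, or to *Il33*, of 7 regions. The AP-1 and ATF factor genes had 0 of 68 regions and the keratinocyte identity genes 0 of 124, lists short enough that the share of 1.47% over all regions would also give few. Several other lists had shares near the 1.47% of all regions. The ETS factors had *Elk4*, whose promoter was restored by FAK-nls alone, with 1 of 100 regions, and the cytokines had *Il24* with 1 of 61. The Hippo genes had *Amot*, whose product binds YAP, with 1 of 102, and the p53 and cell-cycle genes had *Sesn1*, a p53 target, with 1 of 62. The mesenchymal list had *Cdh2*, which encodes N-cadherin, and *Prrx2*, with 2 of 114. The markers of other cell types had 3 of 90 regions (3.33%), a count too small to read a higher share from it. The 3 regions were assigned to *Col3a1* and *Dcn*, of fibroblasts, and *Ptprc*, of leukocytes, each through a region outside its promoter. Leukocyte promoters were not called, apart from *Csf1r* in 3 libraries. The endothelial marker *Cdh5* had a promoter call in FAK-WT 1 and 2 alone, and the melanocyte marker *Pmel* had one in all 8 libraries. Their part in the restored calls was not tested.

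Among the remaining coding promoters, that of *Sh3pxd2a* was restored by FAK-kd alone (chr19:47314328-47315820). Its product TKS5 is a Src substrate that scaffolds podosomes and invadopodia. It had fold enrichments of 3.87 and 3.48 in FAK-WT and 3.29 and 4.04 in FAK-kd, with 2.89 and 2.60 in FAK-/- and 3.61 in FAK-nls 1. The *Chm* promoter (chrX:113185201-113185889), of a Rab escort protein, had 6.40 and 4.81 in FAK-WT, 4.73 and 6.04 in FAK-kd, 3.67 in FAK-nls 1, and no FAK-/- peak. *Amot* (chrX:145461183-145461827) had 5.40 and 4.51 in FAK-WT, 4.47 and 5.81 in FAK-kd, and 4.26 in FAK-/- 1, so that FAK-/- 1 was close to FAK-kd 1.

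Of 13755 genes with any region, 549 (3.99%) had a restored region, 37 of them had 2 or more and 3 had at least 3. Another restored region lay within 100 kb of 75 (12.7%). The like counts were not taken for other sets of regions, so these are a description only. *Lrrc4c*, which encodes a synaptic adhesion protein, had 5 of its 20 regions restored, spread upstream of the gene from chr2:95487652 to 96275473. FAK-kd alone restored 4 of these and FAK-nls alone 1. Over all 20 regions, FAK-WT called 16 and 15, FAK-/- 2 and 2, FAK-nls 6 and 6, and FAK-kd 12 and 8. The strongest (chr2:95487652-95488143) had fold enrichments of 9.21 and 6.56 in FAK-WT, 4.75 and 5.75 in FAK-kd and 4.17 in FAK-nls 2, with no FAK-/- peak. The choice of the 5 fixes part of these counts. Over the other 15 regions FAK-WT called 11 and 10, FAK-/- 2 and 2, FAK-nls 4 and 3, and FAK-kd 7 and 4, so that FAK-kd 2 had no more calls than FAK-nls 1. *Rarb*, the gene of retinoic acid receptor beta, had 4 of its 15 regions restored, 1 by each mutant alone and 2 by both. Over the other 11 regions, FAK-WT called 4 and 7, FAK-/- 1 and 2, FAK-nls 3 and 3, and FAK-kd 2 and 2. *Otud7a*, a deubiquitinase gene, had 3 of 14, and over its other 11 regions FAK-WT called 9 and 9, FAK-/- 7 and 7, FAK-nls 4 and 6, and FAK-kd 7 and 6. Among the genes with 2 were *Csk*, the kinase gene that restrains Src, with both restored by FAK-kd alone, and *Pik3r1*, a regulatory subunit gene of PI3-kinase, with both restored by FAK-nls alone. These genes were picked and counted after the restored regions were seen.

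Shares of the 3 classes on 20 chromosomes, 60 in all, were compared with the share of all regions there, and 5 had an interval that left it out. FAK-nls alone had 26 of its 227 regions on chromosome 3 (11.5%, 7.94 to 16.3%), beside 6.60% of all regions. FAK-kd alone had 24 of 201 on chromosome 2 (11.9%, 8.16 to 17.1%), beside 7.73%, 19 on chromosome 12 (9.45%, 6.14 to 14.3%), beside 4.30%, and 4 on chromosome 7 (1.99%, 0.777 to 5.00%), beside 6.62%. The both-mutants class had 4.88% on chromosome X (2.49 to 9.33%), beside 2.26%. The chromosome 12 share fell to 3.45% with the 20000 strongest peaks per library, and that of chromosome 7 in the FAK-kd class rose to 4.83%, whereas that of chromosome 3 in the FAK-nls class was 10.2%.

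Whole chromosomes also differed in level between the lines. Regions called in all 8 libraries should carry little of the choice of restored regions, and their median log2 pileup per chromosome, centred on the mean of the libraries, was read out after the chromosome counts had been seen. On chromosome 7 it was 0.13 and 0.14 in FAK-/-, and between -0.11 and 0.02 in the other 6 libraries. That chromosome held 6.61% of the regions restored by FAK-nls alone, beside 6.62% of all regions. On chromosome 13 the level was 0.13 and 0.10 in FAK-nls and at most 0.00 elsewhere. Chromosome 13 held 6.61% of the regions restored by FAK-nls alone (4.05 to 10.6%), beside 4.49% of all regions. Shifts as large did not always go with the counts. Chromosome 10 had 0.14 and 0.11 in FAK-nls, but 5.73% of the regions restored by FAK-nls alone, beside 5.32% of all regions. On chromosome 15, FAK-kd stood at 0.12 and 0.05 and FAK-/- at -0.07 and -0.06, yet it held 4.98% of the regions restored by FAK-kd alone, beside 4.89%. On chromosome 3 it was 0.04 and 0.03 in FAK-WT, 0.03 and 0.05 in FAK-nls, -0.05 and -0.04 in FAK-/-, and -0.04 and -0.04 in FAK-kd. On chromosome 12, with its larger share of regions restored by FAK-kd alone, it was 0.06 and 0.05 in FAK-kd and -0.03 and -0.01 in FAK-/-. The 2 libraries of a line shared the shifts on these chromosomes but not on all. Chromosome X stood at 0.11 and -0.04 in FAK-WT, and chromosome 11 at -0.07 and 0.03 in FAK-WT and 0.03 and -0.06 in FAK-kd. Over 20 chromosomes, the share of regions restored by FAK-kd alone went with the FAK-kd minus FAK-/- level (Pearson's r = 0.61, Spearman's rho = 0.72), and the share restored by FAK-nls alone with the FAK-nls minus FAK-/- level (r = 0.48, rho = 0.60). The points share the same 8 libraries and are given as a description. Within 5 Mb of the regions restored by FAK-nls alone, the median FAK-nls minus FAK-/- level of shared regions was 0.06 (quartiles -0.05 and 0.27). It was 0.08 around the both-mutants class, 0.03 around regions not restored and -0.00 over all regions. Around those restored by FAK-kd alone, FAK-kd minus FAK-/- was 0.02. It was 0.03 around the both-mutants class, and 0.01 both around regions not restored and over all regions. Pileup follows accessibility and the number of DNA copies alike, so these cannot be told apart here, and the part of such chromosome-wide differences in the restored calls was not tested.

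The identity of the restored regions depended on the cutoff more than their number did. With the 20000 strongest peaks there were 509, of which 199 of the 592 (33.6%) were still members, and with the 15000 strongest there were 411, with 32 (5.41%). Ranking by fold enrichment gave 577 and kept 310 (52.4%), and ranking by pileup gave 701 and kept 226 (38.2%). With all peaks and no equal number there were 623, of which 82 were kept, and the classes shifted to 90 for FAK-nls alone, 461 for FAK-kd alone and 72 for both. The FAK-nls lists are the shortest. FAK-kd alone also outnumbered FAK-nls alone when a call had to cover 50% of its region (308 against 141), so the order of these classes is not fixed.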

How the data were processed

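ATAC-seq libraries of 4 SCC lines, 2 per line, were grouped by their labels. The authors aligned reads to mm10 with bcbio and called broad peaks per library with MACS2 (2.1.1 in the submitters' processing notes), without pooling replicates. Per the file headers, each deposited peak has a pileup (a coverage signal), a −log10 p-value, a −log10 q-value, and a fold enrichment, which is a ratio to local background. The read totals that the study lists per library were not used here, and the length of a list does not stand for depth. The lists hold no counts, so no count test was run, and calls were compared as present or absent.

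Peaks outside chromosomes 1 to 19, X and Y (15 to 25 per library) were dropped. The 24383 peaks with the largest −log10 p per library were merged when they shared at least 1 bp. A level is that of the strongest peak of the full list overlapping a region. Location and gene came from the region's centre and GENCODE vM21, and sequence from GRCm38.p6. Motifs were exact letters on both strands in the central 500 bp. Beside those in the text they were TGACGTCA for CRE, ACATTCC for TEAD, GGGCGTG and GGGTGTG for KLF, and AACNNGTT for GRHL. AP-2 was sought as GCCNNNGGC, C/EBP as TTGCNNAA, and NF-kB as GGACTTTCC, as GGAATTTCC and as GGAAATTCC. FOX was sought as TGTTTAC, the GATA factors as AGATAAG, shuffled ETS as AGTGAAG and as CGTGAAG, and p53 and CTCF by their consensus. The letters overlap in part between motifs, as in AP-1 and CRE.

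Named regions were the 5 per class with the best worst rank over the libraries required, the first 2 in coding promoters, those assigned to genes of 12 lists, and genes with 3 or more; some of them are described. The members and lists were chosen with earlier results of these data known. Merging, classes and intervals were tested on simulated data. Other peak numbers, rankings, overlaps and q cutoffs were tried, and each library was left out in turn. Chromosome levels, CArG boxes, promoter shares by FAK-/- peaks, per-gene counts and the identity of members were added after seeing the data. Python 3.11.15, pandas 2.3.3, numpy 2.4.6, scipy 1.17.1, pysam 0.24.0 and matplotlib 3.10.9 were used.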

Additional observations from a re-analysis of the deposited data

How the results depend on the processing

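No paired analysis was possible because the results come from no test. Read counts per region were not used, so a missing call limits every class, and intervals cover the counting of regions only. The cause of the shifts below was not tested, although leaving out a library also changes the conditions that define each class.

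The 592 restored regions became 325 with the 10000 strongest peaks per library and 82 with no peak in either full FAK-/- list. FAK-nls alone (227) became 90 with all peaks, 126 with 10000, 148 with 15000, 141 with 50% of a region covered, 65 with −log10 q of at least 3 and 38 with no FAK-/- peak. FAK-kd alone (201) became 461, 100, 129, 308, 362 and 36 in the same order. Both mutants (164) became 72 with all peaks, 99 with 10000, 78 with 50% covered, 45 with −log10 q of at least 3 and 8 with no FAK-/- peak. Fold or pileup ranking, 500 bp peaks and autosomes moved no count by over 1.5 times. Leaving out 1 library gave 712 to 1437 in all, 146 to 536, 146 to 437 and 211 to 598. Both FAK-WT and both FAK-/- libraries moved the total by over 1.5 times (1072, 927, 1437 and 1357 without FAK-WT 1, FAK-WT 2, FAK-/- 1 and FAK-/- 2). FAK-nls alone also moved by as much without these 4 libraries (536, 385, 402 and 430), either FAK-nls library (367 and 354) or FAK-kd 1 (146). FAK-kd alone did so without FAK-WT 2 (331), FAK-/- 1 (437), FAK-/- 2 (392) or either FAK-kd library (406 and 320), and both mutants without FAK-/- 1 (598) or FAK-/- 2 (535).

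The share of FAK-WT-only regions in FAK-nls was 4.78% with all peaks and 31.6% with 20000, and 18.4 to 42.1% without 1 library. In FAK-kd it was 15.7% with all peaks and 15.8 to 46.9% without 1 library. Of all FAK-WT regions, FAK-nls had 52.9%, 71.7% and 75.8%, and FAK-kd 75.2%, 78.6% and 80.9%, with all peaks, 15000 and 20000, and 67.6 to 84.4% and 71.5 to 87.9% without 1 library. AP-1 in restored regions (44.9%) was 55.8% outside promoters, 28.4% in the central 200 bp, 54.6% over whole regions and 59.8% without a FAK-/- peak. Promoter shares without a FAK-/- peak were 11% in all, 5.26% for FAK-nls alone, 13.9% for FAK-kd alone and 25% for both, and with protein-coding starts only 24.2% in all.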
